A study of Mus musculus with 9 samples.

Results

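The antioxidant, glutathione and NRF2 target genes are a set of 42 genes that cells use to detoxify peroxides, quinones, haem and other reactive compounds. They were found by gene symbol among the 24062 genes of a count table from mouse embryonic fibroblasts, which are connective tissue cells grown from embryos. All 42 were in the table, and all 42 were among the 14572 genes that passed the filter on low counts. The study sequenced RNA from 9 libraries of C57BL/6 cells, 3 in each of 3 groups, taken 10 days after transfer of a lentivirus. The control group received a control lentivirus (titled EV), the p21 group a lentivirus for overexpression of p21 and the p16 group one for overexpression of p16. Both proteins block cyclin-dependent kinases and can arrest the cell cycle. The labels call the p21 and p16 cells senescent, and the status label of the control libraries reads senescent as well. Neither the promoter of the lentivirus nor the species of its inserts is stated in the labels. The p16 libraries carry later record numbers than the other groups, so p16 and any separate preparation cannot be told apart. The labels do not tell whether replicates are separate cultures, and a p-value here reflects only how these libraries vary.

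NRF2, the product of Nfe2l2, is a transcription factor that the adaptor KEAP1 marks for degradation in unstressed cells. Oxidants and electrophiles modify KEAP1, NRF2 then accumulates, pairs with small MAF proteins and binds antioxidant response elements near its target genes. Those targets make and recycle glutathione, reduce thioredoxin and peroxiredoxins, supply NADPH and degrade haem and quinones. In fibroblasts this network is known for buffering hydrogen peroxide.

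The core of the antioxidant response element was searched as TGACNNNGC on both strands of RefSeq promoters of the GRCm38.p6 build, which span 250 bases before to 50 bases after each annotated start. Of the 42 members, 36 had a promoter in that table, and 11 of the 36 (30.6%) held the core in at least 1 promoter. The share among all genes of the table was 3781 of 27025 (14.0%), and a match is a description of letters, not a bound site. The 11 matches are printed to show the letters in and around each core, in genes whose transcripts did or did not change. Each line gives 29 bases, read 5′ to 3′ on the strand that carries the core, with the core in capitals.
Prdx1 (chr4:116685456-116685484, minus strand): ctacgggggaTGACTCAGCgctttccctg
Me1 (chr9:86695902-86695930, minus strand): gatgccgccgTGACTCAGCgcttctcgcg
G6pdx (chrX:74428919-74428947, plus strand): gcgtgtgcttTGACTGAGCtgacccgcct
Nfe2l2 (chr2:75704885-75704913, minus strand): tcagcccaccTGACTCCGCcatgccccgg
Txnrd1 (chr10:82859104-82859132, minus strand): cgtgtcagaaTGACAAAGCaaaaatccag
Srxn1 (chr2:152105542-152105570, minus strand): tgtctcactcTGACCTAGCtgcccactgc
Gclm (chr3:122245413-122245441, minus strand): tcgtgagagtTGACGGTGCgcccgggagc
Mgst1 (chr6:138140461-138140489, minus strand): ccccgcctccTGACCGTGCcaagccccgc
Gstm5 (chr3:107895802-107895830, plus strand): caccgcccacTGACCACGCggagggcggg
Sod1 (chr16:90220696-90220724, minus strand): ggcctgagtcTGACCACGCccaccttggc
Pgd (chr4:149166061-149166089, minus strand): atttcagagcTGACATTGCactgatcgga
Prdx1 and Me1 carry the same core letters, TGACTCAGC. Of the 11 genes with a match, Prdx1 and Me1 were higher and G6pdx was lower in p21 than in control libraries, and the other 8 did not pass the test. Of the 25 genes whose promoters held no match, 13 passed it, 10 of them higher and 3 lower. In the same comparison, 39.9% of all 14572 genes tested passed it in either direction. Whether genes with and without a match differ in this share was not tested. No match says only that these letters are not in this window. The letters TGAGTCAGC, with G in place of the C of TGAC, are in the promoters of Srxn1 and Gstp1 and were not counted. Hmox1, Gclc, Gsr, Prdx6, Sod3 and Gsta4 had no promoter in the table.

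The libraries held between 56.9 M counts (M stands for 1e+06 counts; p21 replicate 3) and 76.1 M counts (control replicate 1). Levels are given as CPM, counts per 1e+06 counts after scaling each library with edgeR's TMM method. The labels were checked first: Cdkn1a, which encodes p21, read 366, 1130 and 419.5 CPM on average in control, p21 and p16 libraries. Cdkn2a, whose counts join p16 and p19Arf, read 63.1, 95.6 and 1017 CPM. Replicate 3 of each group stood apart in sex-linked transcripts, with Xist at 397, 158 and 262 CPM against at most 1.34 CPM in the other 6 libraries. Y-linked Ddx3y read 1.10, 10.8 and 1.27 CPM in replicate 3 of control, p21 and p16, against at least 50.1 CPM in the other 6. Of these, p21 replicate 3 thus had the lowest Xist and the highest Ddx3y of the replicate 3 libraries. Fibroblast markers were abundant (Col1a1 14550 and Vim 5402 CPM in control libraries), although Dcn and Lum stood at 2.19 and 0.872 CPM.

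In p21 cells, 13 of the 42 members rose and 5 fell against control, which is 31.0% and 11.9% of the set. Of all 14572 genes tested, 19.3% rose and 20.7% fell, or 39.9% in all, in the same comparison. A call is a Benjamini-Hochberg adjusted p under 0.05 over all genes tested, from edgeR's quasi-likelihood F test. The members that rose were Hmox1, Gsto1, Nqo1, Gpx8, Me1, Ftl1, Prdx1, Fth1, Prdx2, Prdx5, Sod2, Gpx4 and Cat, and those that fell were Prdx4, Gstm1, Gsr, G6pdx and Gstp1. The median log2 fold change of the members was 0.18, against -0.01 for all genes tested. Most changes were small: Hmox1, Gsto1 and Prdx4 were the 3 called members past 1.5-fold (7.14% of the set, against 12.6% of all genes tested). Without replicate 3 of any group, 15 members rose and 6 fell (35.7% and 14.3%, against 18.3% and 19.2% of all genes tested in that refit).

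In p16 cells, 2 members rose (Gpx8 and Me1) and 3 fell (Gsr, G6pdx and Gstm1) against the same control libraries. Those are 4.76% and 7.14% of the set, while 3.57% of all genes tested rose and 3.65% fell, or 7.22% in all. None of the 5 passed 1.5-fold, which 1.30% of all genes tested did, and the median log2 fold change was 0.02 for members and -0.01 for all genes. Over all genes, 520 rose and 532 fell in p16 cells, and scaling by library size alone turned this into 444 and 683. With the replicate number as a block, 8 members rose (Gpx8, Me1, Hmox1, Nqo1, Gsto1, Gstm2, Gpx3 and Prdx2) and 4 fell (Gsr, G6pdx, Gstm1 and Prdx4). The blocked shares were 19.0% and 9.52% of members, and 8.59% and 8.38% of all genes tested. None of the 5 p16 calls held under each of the 16 alternative settings tried.

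The direct contrast of p21 with p16 also tests whether their effects against the shared control differ. Hmox1, Prdx2, Gpx4, Me1 and Fth1 were higher in p21 than in p16 cells and Prdx4 was lower. That is 11.9% and 2.38% of the members, beside 6.19% and 6.64% of all genes tested, and the median log2 difference was 0.13 for members and -0.01 for all genes. Hmox1 was the 1 called member past 1.5-fold (2.38% of the set, against 2.99% of all genes tested). With the replicate block, 14 members were higher and 4 lower (33.3% and 9.52%), as were 11.8% and 12.2% of all genes tested. Prdx4 was the 1 of these 6 calls that held under each of the 16 settings, and leaving out p21 replicate 1 removed all 5 of the higher ones.

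**Figure D1:**
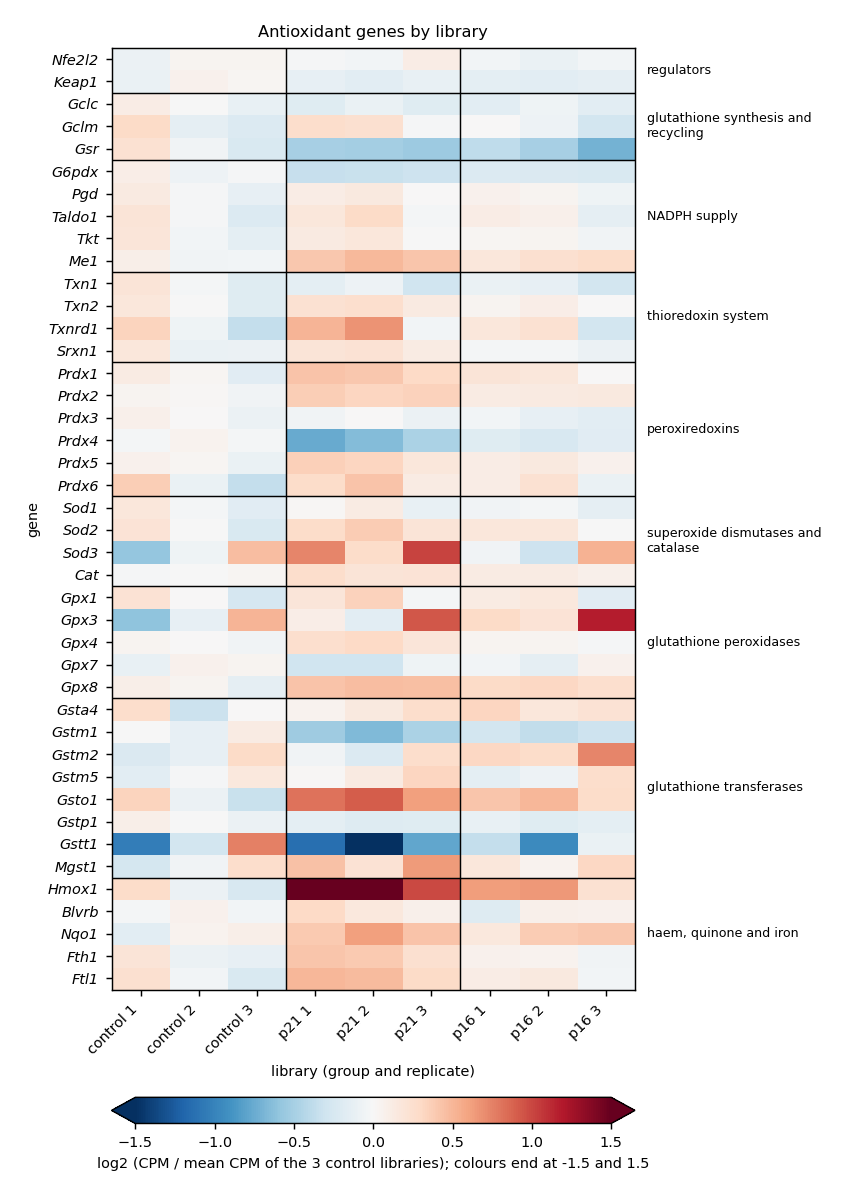
Level of each of the 42 members in each of the 9 libraries, as log2 of its CPM over the mean CPM of the 3 control libraries (red higher, blue lower, colours ending at -1.5 and 1.5), in rows by role. Hmox1 and Gsto1 are red in all 3 p21 libraries, Prdx4 and Gstm1 are blue there, and control replicate 1 is redder than control replicate 3 in most rows.

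With all 9 libraries, neither regulator passed in any comparison with edgeR (TMM scaling, no block) or DESeq2. Keap1 had an unadjusted edgeR p under 0.05 in p21 and in p16 cells. In p21 cells Keap1 passed, with a negative sign, under scaling by library size alone and with the replicate block. Nfe2l2 (chr2:75675513-75704641, minus strand) read 99.2, 108 and 108 CPM in control, 104, 102 and 113 in p21 and 102, 97.8 and 102 in p16 replicates 1 to 3. The 3 groups overlapped, and its log2 fold change in p21 cells was 0.02, with a 95% interval of -0.11 to 0.14. In p16 cells it was -0.06 (-0.19 to 0.06). Keap1, which encodes the adaptor that holds NRF2 in check, read 52.3, 58.7 and 57.1 CPM in control, 51.6, 50.3 and 51.7 in p21 and 50.6, 50.3 and 51.2 in p16 replicates 1 to 3. All 6 p21 and p16 libraries lay below the lowest control library, with log2 fold changes of -0.13 (edgeR adjusted p = 0.0612) and -0.14 (adjusted p = 0.111). Without control replicate 1 both passed (adjusted p = 0.0088 and 0.0318), and the direct log2 difference of p21 from p16 was 0.01 for Keap1 and 0.08 for Nfe2l2. Transcript levels do not measure the amount of NRF2 protein.

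Haem, quinone and iron genes held the largest rise, and 4 of 5 rose in p21 cells (80%, against 19.3% of all genes tested). All 5 had p21 libraries above every control library. Groups did not overlap in this direction for 13 of the 42 members, or 31.0%, and for 24.0% of all genes tested. Hmox1 (chr8:75093621-75100589, plus strand) encodes haem oxygenase, which breaks haem into iron, carbon monoxide and biliverdin. It read 118, 91.5 and 82.1 CPM in control replicates 1 to 3, 286, 292 and 193 in p21 and 149.5, 152 and 114 in p16. Every p21 library exceeded every other library, p21 replicate 3 was the lowest of its group, and p16 replicate 3 overlapped the control range. The rise in p21 cells was 2.65-fold (log2 1.40 ± 0.19 SE, edgeR adjusted p = 0.000373). In p16 cells the log2 fold change was 0.51 ± 0.18 (adjusted p = 0.122, and 0.00212 with the replicate block), so it did not pass. The direct difference was log2 0.89 ± 0.18, or 1.86-fold (adjusted p = 0.0148). That call was lost without p21 replicate 1, p21 replicate 2 or p16 replicate 3 (adjusted p = 0.0666, 0.0522 and 0.0502), with log2 differences from 0.77 to 0.81.

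Nqo1 (chr8:107388225-107403206, minus strand) encodes the quinone reductase often used to read out NRF2 activity. Its levels were 34.5, 40.0 and 40.7 CPM in control, 50.5, 58.8 and 51.6 in p21 and 42.9, 49.9 and 51.0 in p16 replicates 1 to 3. All 6 p21 and p16 libraries exceeded all 3 control libraries, and p21 and p16 overlapped. The log2 fold change was 0.48 ± 0.09 in p21 cells (adjusted p = 0.00243) and 0.32 ± 0.09 in p16 cells (adjusted p = 0.0624, and 0.00428 with the block). The difference of 0.16 between p21 and p16 did not pass (adjusted p = 0.268).

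The ferritin chains, which store iron in a form that cannot catalyse radical formation, also rose. Fth1 (chr19:9980598-9985098, plus strand), the heavy chain, read 443, 362 and 354 CPM in control, 515, 508 and 456 in p21 and 404, 402 and 372 in p16 replicates 1 to 3. Ftl1 (chr7:45457944-45459884, minus strand), the light chain, read 2945, 2422 and 2137 CPM in control, 3524, 3488 and 3042 in p21 and 2698, 2771 and 2423 in p16. For both genes each p21 library exceeded each control library, while p16 overlapped control. Fth1 rose by log2 0.35 ± 0.09 (adjusted p = 0.0101) and Ftl1 by 0.42 ± 0.11 (adjusted p = 0.0137) in p21 cells. In p16 cells they stood at 0.02 and 0.07 (adjusted p = 0.912 and 0.745). Fth1 was higher in p21 than p16 by log2 0.33 (adjusted p = 0.0361), a call lost without control replicate 2 or any 1 of 5 p21 and p16 libraries other than p21 replicate 3 (adjusted p from 0.0516 to 0.132). Ftl1 differed by 0.35 (adjusted p = 0.0679) and passed with the replicate block (0.00298). Of the distinct 50-base words in Ftl1's annotated exons, 58.4% also occur in other annotated genes, chiefly the pseudogene Ftl1-ps1, so its counts are uncertain. Blvrb, a biliverdin and flavin reductase, had log2 values of 0.18, -0.01 and 0.19 in the 3 comparisons and passed in none (adjusted p = 0.153, 0.95 and 0.205).

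Markers of macrophages, which handle haem iron and were listed as a cell type the cultures could hold, were also higher in p21 cells. Lyz2, the marker with the highest level there, read 12.3, 16.3 and 23.3 CPM in p21 replicates 1 to 3. Of 16 macrophage markers tested, 11 rose in p21 cells (68.8%, against 19.3% of all genes tested). None rose in p16 cells with edgeR (1 had an unadjusted p under 0.05, a fall, and DESeq2 called none). In p21 minus p16, 10 of the 16 markers were higher (62.5%, against 6.19% of all genes tested) and none was lower. Their summed level ran from 14.6 to 17.7 CPM in control, 28.9 to 51.8 in p21 and 11.6 to 16.9 in p16 libraries. The defining markers were low but not at 0: Ptprc averaged 0.247 CPM in control and 0.746 in p21 libraries, Adgre1 (listed as Emr1) 0.214 and 0.868, and Csf1r 1.95 and 3.35. The part of such cells in the rise of Hmox1 and ferritin was not tested. In bulk RNA, more cells of a type and more RNA per cell cannot be told apart. Defining markers of endothelium, epithelium and adipocytes reached at most 0.385, 0.262 and 0.0558 CPM, while other genes of those lists reached more: Emcn 5.44, Krt18 9.15 and Fabp4 14.8 CPM. Emcn, an endothelial sialomucin, was the 1 called gene of those 3 lists, higher 2.36-fold in p21 (adjusted p = 0.0127) and 2.83-fold in p16 cells (0.0252). Its p16 call was lost without any 1 control library, p16 replicate 2 or p16 replicate 3 (0.0595 to 0.0896), and its part in the members' changes was not tested. Erythroid markers summed to at most 0.595 CPM, with Hba-a1 at 0 in all 9 libraries.

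**Figure D2:**
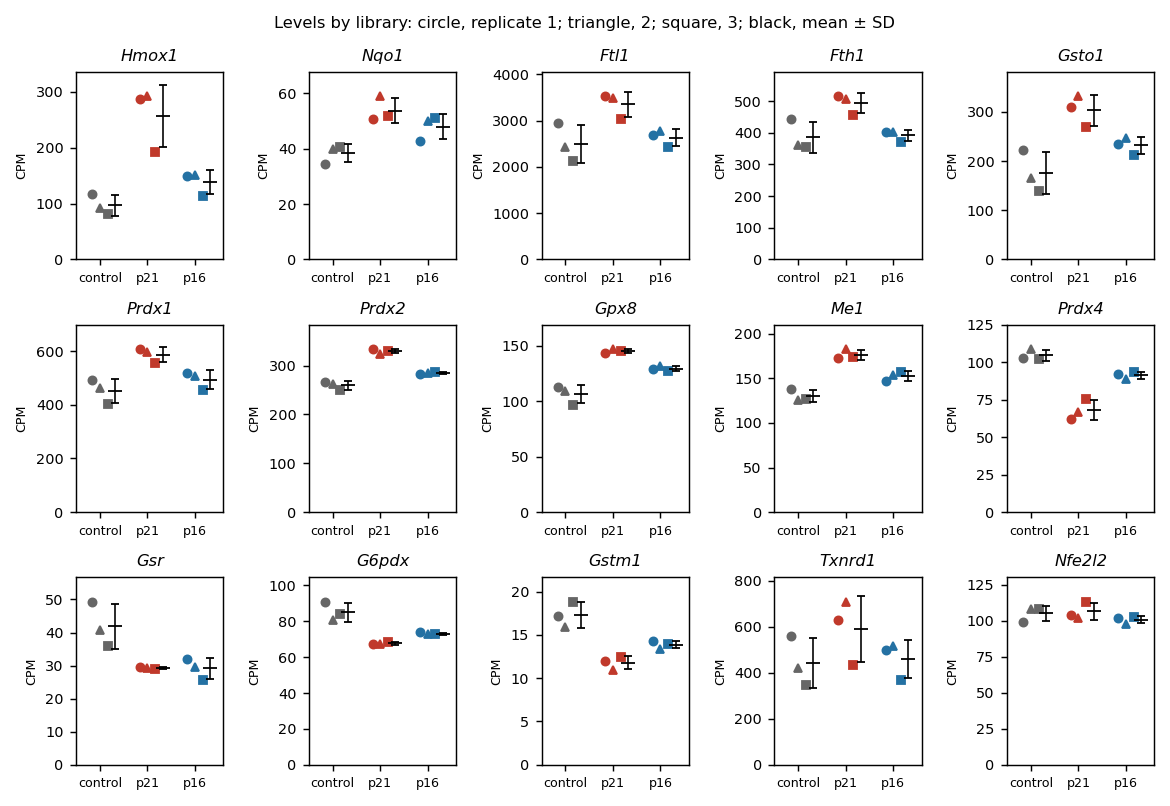
CPM of 15 members in each library (circles, triangles and squares are replicates 1, 2 and 3; black marks are group mean ± SD, n = 3; axes start at 0). Hmox1 reads 257 ± 55.5 CPM in p21 against 97.1 ± 18.5 in control libraries, Prdx4 is lowest in p21, and Nfe2l2 overlaps across the 3 groups.

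Of the 3 genes of glutathione synthesis and recycling, 1 fell and none rose in either p21 or p16 cells. That fall is 33.3% of the 3, against 20.7% of all genes tested in p21 and 3.65% in p16 cells. No member of this group had an unadjusted p under 0.05 for a rise, and DESeq2 called none higher, while the replicate block gave 1 higher in p21 minus p16 (Gclm). Gclc and Gclm encode the catalytic and modifier subunits of glutamate-cysteine ligase, which catalyses the rate-limiting step of glutathione synthesis. Gclc read 41.0, 37.7 and 34.9 CPM in control, 33.3, 35.5 and 33.5 in p21 and 33.9, 36.1 and 33.8 in p16 replicates 1 to 3, with overlap between all groups. Gclm read 40.3, 30.1 and 28.5, 39.4, 38.9 and 32.6 and 33.0, 31.4 and 27.3 CPM in the same order, also with overlap, and control replicate 1 was the highest of the 9 libraries. The log2 fold changes in p21 cells were -0.15 ± 0.06 for Gclc (adjusted p = 0.0819, and 0.0312 without control replicate 3) and 0.17 ± 0.13 for Gclm (adjusted p = 0.342, and 0.0253 without control replicate 1). In p16 cells they were -0.13 and -0.11 (adjusted p = 0.243 and 0.668), and p21 minus p16 gave -0.02 and 0.28 (adjusted p = 0.852 and 0.199). Gclm passed in the latter with the replicate block (0.0184). Gsr (chr8:33652523-33698163, plus strand) encodes glutathione reductase, which returns oxidised glutathione to its reduced form with NADPH. Its levels were 49.3, 40.6 and 35.9 CPM in control, 29.6, 29.4 and 28.8 in p21 and 32.1, 29.7 and 25.6 in p16 replicates 1 to 3. Each p21 and each p16 library lay below each control library, and the p21 replicates were nearly level. Gsr fell by 1.43-fold in p21 cells (log2 -0.52 ± 0.11, adjusted p = 0.00524) and by 1.44-fold in p16 cells (log2 -0.53 ± 0.11, adjusted p = 0.0253). Its p21 minus p16 difference was 0.01, with a 95% interval of -0.25 to 0.26. The p16 call was lost without control replicate 2 or any 1 of the 3 p16 libraries (adjusted p from 0.0512 to 0.0918).

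NADPH is the electron donor for glutathione reductase and thioredoxin reductase, and its suppliers split in direction. Me1 (chr9:86581371-86695953, minus strand), the cytosolic malic enzyme, read 138, 126 and 127 CPM in control, 172, 183 and 174 in p21 and 146, 154 and 158 in p16 replicates 1 to 3. The groups did not overlap, with p21 highest, p16 between and control lowest. Me1 rose by log2 0.44 ± 0.05 in p21 cells (adjusted p = 0.000212) and by 0.23 ± 0.05 in p16 cells (adjusted p = 0.0302), and was higher in p21 than p16 by 0.21 (adjusted p = 0.0316). The p16 call was lost without control replicate 2, control replicate 3 or any 1 p16 library (adjusted p from 0.06 to 0.106). The p21 minus p16 call was lost without control replicate 2 or any 1 of the 6 p21 and p16 libraries (0.0521 to 0.131). G6pdx (chrX:74409483-74429194, minus strand) encodes glucose-6-phosphate dehydrogenase, the first enzyme of the pentose phosphate pathway. It read 91.0, 80.5 and 83.9 CPM in control, 67.2, 67.5 and 68.7 in p21 and 73.8, 73.0 and 72.7 in p16, and the 3 groups did not overlap, with control highest and p21 lowest. The log2 fold change was -0.33 ± 0.05 in p21 cells (adjusted p = 0.000868) and -0.22 ± 0.05 in p16 cells (adjusted p = 0.0332), while p21 minus p16 was -0.11 (adjusted p = 0.186). The p16 call was lost without any 1 library other than control replicate 2 and p21 replicate 3 (adjusted p from 0.0523 to 0.117). The later pentose phosphate enzymes, Pgd, Taldo1 and Tkt, stood at log2 0.09, 0.15 and 0.10 in p21 cells (adjusted p = 0.329, 0.308 and 0.349). They did not pass in p16 cells (0.02, 0.02 and 0.01) or in p21 minus p16 (0.07, 0.13 and 0.10) either. Without control replicate 1, Tkt passed in p21 cells (adjusted p = 0.0302). Other annotated genes share 28.3% of the 50-base words of Me1 and 16.9% of those of G6pdx, which overlaps Ikbkg.

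None of the 4 genes of the thioredoxin system passed in any comparison with edgeR and no block. In p21 minus control 2 had an unadjusted p under 0.05, Txn2 and Srxn1, and DESeq2 called both. In p16 minus control none had such a p and DESeq2 called none. In p21 minus p16 the 1 with such a p, Srxn1, was also called by DESeq2. Txnrd1, the cytosolic thioredoxin reductase, read 558, 422 and 346 CPM in control, 630.2, 708 and 431 in p21 and 498, 516 and 367 in p16 replicates 1 to 3. Replicate 3 was the lowest library of each group, p21 replicate 3 lay within the control range, and so did all 3 p16 libraries. Its log2 fold change was 0.42 ± 0.21 in p21 cells (adjusted p = 0.152), 0.06 in p16 cells (0.908) and 0.36 between them (0.309, and 0.0172 with the replicate block). In p21 minus control it passed without control replicate 1 (log2 0.62, adjusted p = 0.0442) and without p21 replicate 3 (log2 0.60, adjusted p = 0.0403). Srxn1 encodes sulfiredoxin, which repairs overoxidised peroxiredoxins, and read 83.6, 69.7 and 70.0 CPM in control, 84.9, 86.3 and 80.9 in p21 and 72.8, 72.9 and 70.1 in p16. The p21 libraries lay above all p16 libraries and overlapped control replicate 1. Srxn1 stood at log2 0.18, -0.05 and 0.22 in the 3 comparisons (adjusted p = 0.0756, 0.727 and 0.067). Cytosolic Txn1 and mitochondrial Txn2, the thioredoxins themselves, stood at -0.17 and 0.20 in p21 cells (adjusted p = 0.174 and 0.066). They stood at -0.16 and 0.05 in p16 cells and at -0.01 and 0.16 in p21 minus p16. Without control replicate 1, Txn2 and Srxn1 passed in p21 cells (adjusted p = 0.00539 and 0.00233), as Txn1 did with a negative sign without control replicate 3 (0.0487). Srxn1 also passed in p21 minus p16 without control replicate 1 (0.00889) and with the replicate block (0.0164).

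Peroxiredoxins reduce peroxides with a reactive cysteine. In p21 cells 3 of 6 rose and 1 fell (50% and 16.7%, against 19.3% and 20.7% of all genes tested). Prdx1 (chr4:116685544-116700822, plus strand), the abundant cytosolic form and the bearer of the core TGACTCAGC printed above, read 491, 462 and 403 CPM in control, 608, 598 and 556 in p21 and 518, 509 and 454 in p16 replicates 1 to 3. Prdx2 (chr8:84969587-84974834, plus strand), also cytosolic, read 267, 262 and 249 CPM in control, 334, 325 and 330.5 in p21 and 283, 286 and 287 in p16. Prdx5 (chr19:6906697-6910106, minus strand), found in mitochondria and peroxisomes, read 134, 131 and 119.5 CPM in control, 165, 160.5 and 144 in p21 and 138, 141 and 134 in p16. All p21 libraries lay above all control and p16 libraries for each of these 3 genes. The rises in p21 cells were log2 0.38 ± 0.08 for Prdx1, 0.35 ± 0.04 for Prdx2 and 0.29 ± 0.06 for Prdx5 (adjusted p = 0.0043, 0.000188 and 0.0051). In p16 cells the values were 0.13, 0.14 and 0.11 (adjusted p = 0.362, 0.073 and 0.326), and Prdx2 passed there with the replicate block (0.0435). Prdx2 was higher in p21 than p16 by log2 0.21 (adjusted p = 0.0113), and did not pass when p21 replicate 1 or p16 replicate 1 was left out (0.0574 and 0.0555). Prdx1 and Prdx5 differed by 0.25 and 0.18 (adjusted p = 0.0651 and 0.0858). Prdx1 passed without control replicate 1 or 3 (0.0376 and 0.03) and Prdx5 without p21 replicate 3 (0.0337), and with the replicate block both did (0.00211 and 0.0115).

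Prdx4 (chrX:155323918-155340754, minus strand), the peroxiredoxin of the endoplasmic reticulum, had the lowest adjusted p of the 42 members in p21 minus control, and it fell. It read 103, 109 and 102 CPM in control, 62.1, 66.8 and 75.2 in p21 and 92.1, 88.7 and 93.2 in p16 replicates 1 to 3. The 3 groups did not overlap, with p16 between control and p21. The fall in p21 cells was 1.54-fold (log2 -0.62 ± 0.07, adjusted p = 0.000131). In p16 cells the log2 fold change was -0.19 ± 0.07 (adjusted p = 0.113, and 0.0448 with the replicate block), and p21 was lower than p16 by 1.34-fold (log2 -0.43 ± 0.07, adjusted p = 0.00489). Prdx4 and G6pdx are the 2 members on the X chromosome, and for both each p21 library lay below each control library. Mitochondrial Prdx3 stood at -0.04, -0.11 and 0.07, and Prdx6, which acts with glutathione, at 0.28, 0.08 and 0.20, in the 3 comparisons, and neither passed. Prdx6 ranged from 152 to 251 CPM within control, and passed in p21 cells without control replicate 1 (log2 0.51, adjusted p = 0.00993).

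**Figure D3:**
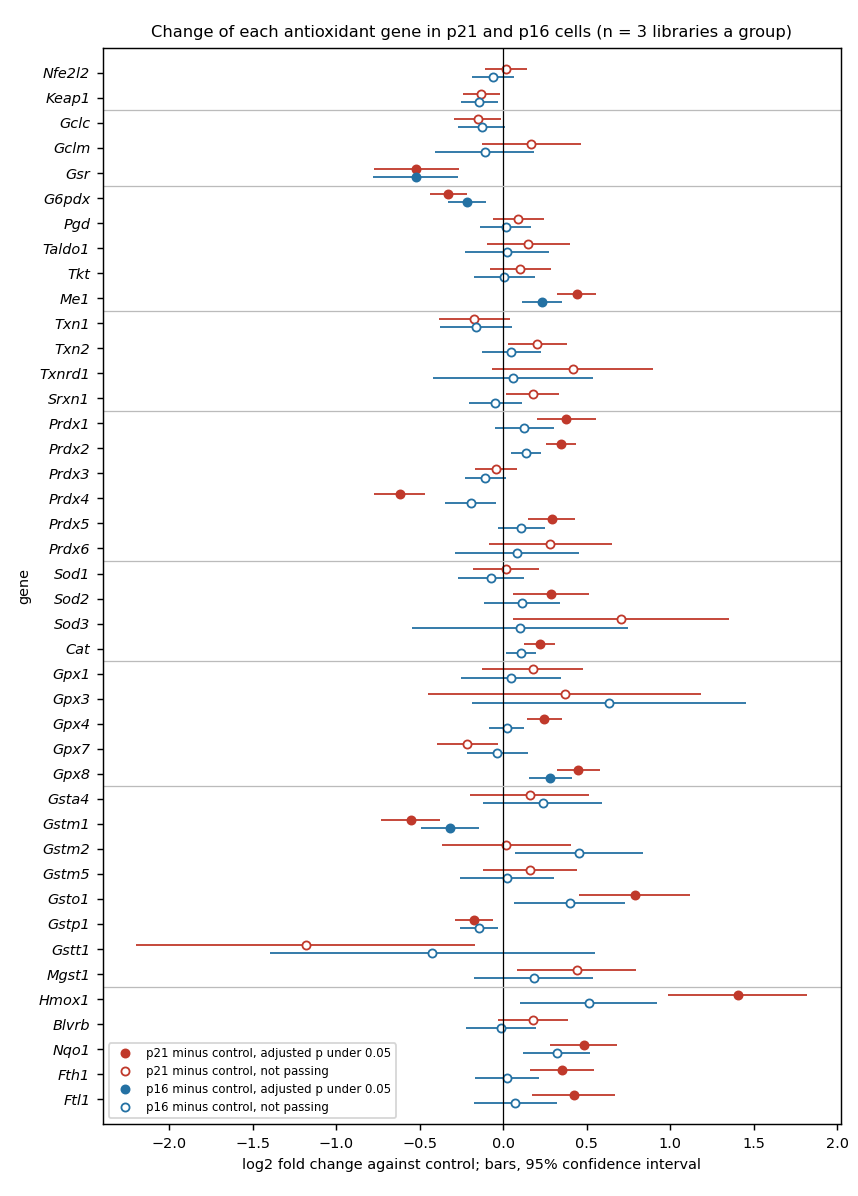
Log2 fold change of each member against control in p21 cells (red) and p16 cells (blue), with 95% confidence intervals. Filled points have an adjusted p under 0.05: 18 in p21 cells and 5 in p16 cells, and Hmox1 lies furthest to the right at 1.40.

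Superoxide dismutases turn superoxide into hydrogen peroxide, which catalase then splits. Cat (chr2:103453849-103485160, minus strand) read 77.7, 78.7 and 80.2 CPM in control, 94.3, 90.0 and 91.0 in p21 and 85.6, 85.5 and 83.4 in p16 replicates 1 to 3. The groups did not overlap, and the rise in p21 cells was small and even (log2 0.22 ± 0.04, adjusted p = 0.00254). In p16 cells the value was 0.11 (adjusted p = 0.152) and p21 minus p16 was 0.11 (0.101). Mitochondrial Sod2 averaged 37.2 ± 5.53 CPM (SD, n = 3) in control, 45.3 ± 2.92 in p21 and 40.2 ± 2.76 in p16 libraries. Its rise in p21 cells was log2 0.28 (adjusted p = 0.0482), although control replicate 1 overlapped the p21 range. That call was lost without control replicate 2 or 3, p21 replicate 1 or 2, or p16 replicate 1 or 2 (adjusted p from 0.0588 to 0.136), and without control replicate 3 the log2 value was 0.19. Sod2 stood at 0.11 in p16 cells and 0.17 in p21 minus p16, and passed in neither. Cytosolic Sod1 stood at 0.01, -0.07 and 0.09 in the 3 comparisons. Extracellular Sod3 averaged 14.6 ± 5.21 CPM in control, 23.8 ± 5.89 in p21 and 15.6 ± 4.8 in p16, a wide spread, and its log2 values of 0.71, 0.10 and 0.61 did not pass (adjusted p = 0.0784, 0.878 and 0.199). Without control replicate 3, Sod3 passed in p21 cells (log2 1.01, adjusted p = 0.0214), and with the replicate block it passed in p21 minus p16 (0.0103).

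Glutathione peroxidases reduce peroxides at the expense of glutathione, and 2 of 5 rose in p21 cells (40%, against 19.3% of all genes tested). Gpx8 (chr13:113042753-113046410, minus strand), a membrane protein of the endoplasmic reticulum, read 113, 109 and 97.0 CPM in control, 143, 147 and 145 in p21 and 129, 131 and 127 in p16 replicates 1 to 3. The groups did not overlap, and Gpx8 rose in p21 cells (log2 0.45 ± 0.06, adjusted p = 0.000296) and in p16 cells (0.28 ± 0.06, adjusted p = 0.0208). Its p21 minus p16 difference of 0.17 did not pass (adjusted p = 0.0849, and 0.0464 and 0.0221 without control replicate 1 or 3), but did with the replicate block (0.0317). The p16 call was lost without control replicate 2, p16 replicate 1 or p16 replicate 2 (0.0543, 0.0686 and 0.0819). In p21 cells Gpx8 rose and Prdx4 fell, and both proteins work in the endoplasmic reticulum. Gpx4 (chr10:80047166-80056439, plus strand) encodes the enzyme that reduces lipid peroxides in membranes and guards against ferroptosis. It read 226, 219.8 and 211 CPM in control, 261, 268 and 249 in p21 and 224, 226 and 215 in p16, and each p21 library exceeded each other library. Gpx4 rose by log2 0.24 ± 0.05 in p21 cells (adjusted p = 0.00265), stood at 0.02 in p16 cells (0.848) and was higher in p21 than p16 by 0.23 (0.0147). The last call was lost without p21 replicate 1 or 2 or p16 replicate 1 or 3 (0.0542 to 0.0655), and 34.7% of Gpx4's 50-base words also occur in the pseudogene Gpx4-ps2. Cytosolic Gpx1 stood at 0.18, 0.04 and 0.13, and Gpx7 of the endoplasmic reticulum at -0.22, -0.04 and -0.18, in the 3 comparisons. Gpx7 passed in p21 cells without control replicate 1 or p21 replicate 3 (0.0318 and 0.0159), and Gpx1 did not pass in these refits. With the replicate block Gpx7 was lower in p21 than in p16 cells (adjusted p = 0.04998). Secreted Gpx3 was the most variable of the peroxidases, with 28.9, 40.2 and 62.1 CPM in control, 46.7, 39.2 and 83.5 in p21 and 53.4, 50.6 and 99.2 in p16 replicates 1 to 3. Replicate 3 was the highest of each group, and the log2 values of 0.37, 0.63 and -0.26 had 95% intervals that all held 0. With the replicate block Gpx3 was higher in p16 than in control cells (adjusted p = 0.00354).

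Glutathione transferases attach glutathione to electrophiles, and their changes went in both directions. Gsto1 (chr19:47854970-47864790, plus strand), an omega-class enzyme with thioltransferase activity, read 222, 166 and 139.9 CPM in control, 310, 331 and 269 in p21 and 234, 248 and 213 in p16 replicates 1 to 3. Each p21 library exceeded each other library, and control replicate 1 overlapped the p16 range. Gsto1 rose 1.73-fold in p21 cells (log2 0.79 ± 0.15, adjusted p = 0.00259) and stood at 0.40 in p16 cells (0.134) and 0.39 in p21 minus p16 (0.115). Without control replicate 1 the latter values passed (0.0192 and 0.0233), the p16 log2 value then being 0.60. Both also passed with the replicate block (0.0134 and 0.0127). Gstm1 (chr3:108012255-108017973, minus strand), a mu-class enzyme, read 17.2, 15.9 and 18.8 CPM in control, 11.9, 10.9 and 12.5 in p21 and 14.3, 13.4 and 13.9 in p16. The 3 groups did not overlap, with p21 lowest, and Gstm1 fell by 1.47-fold in p21 cells (log2 -0.55 ± 0.08, adjusted p = 0.000569). It also fell in p16 cells (-0.32 ± 0.08, adjusted p = 0.0418), a call lost without any 1 library other than p21 replicate 3 (adjusted p from 0.0502 to 0.153). The p21 minus p16 value was -0.24 (adjusted p = 0.0825, and 0.0256 with the replicate block). Gstp1, the pi-class enzyme, averaged 57.2 ± 3.39 CPM in control, 50.6 ± 0.871 in p21 and 51.6 ± 1.34 in p16, and fell in p21 cells (log2 -0.17, adjusted p = 0.0223). The Gstp1 call was lost without control replicate 1 or 2 or p21 replicate 2 or 3 (0.0542 to 0.066). In p16 cells Gstp1 stood at -0.15 and in p21 minus p16 at -0.03. Other annotated genes share 33.7% of Gstp1's 50-base words, chiefly Gstp2, and 18.9% of Gstm1's.

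The other 5 transferases did not pass in any comparison with edgeR and no block. Unadjusted p-values under 0.05 were found for Mgst1 and Gstt1 in p21 minus control, both also called by DESeq2, and for Gstm2 in both comparisons with p16, which DESeq2 did not call. With the replicate block Gstm2 was higher in p16 than in control cells and lower in p21 than in p16 cells (adjusted p = 0.00178 and 0.00121). Gstm2 stood at 0.02, 0.45 and -0.43 and Gstm5 at 0.16, 0.02 and 0.14 in the 3 comparisons. Gsta4, an alpha-class enzyme that acts on lipid aldehydes, stood at 0.16, 0.24 and -0.08. Microsomal Mgst1 had 0.44, 0.18 and 0.26, and its p21 value lay just outside the threshold (adjusted p = 0.0511). It passed without control replicate 3 (0.0158) or p21 replicate 2 (0.0376). The theta-class Gstt1 had -1.18, -0.42 and -0.76, at 0.808, 1.36 and 2.79 CPM in control, 0.757, 0.467 and 0.963 in p21 and 1.29, 0.851 and 1.54 in p16 replicates 1 to 3, and it passed in p21 cells without control replicate 1 (0.0152). Gstt1 was the lowest of the 42 members, and control replicates 1 and 3 alone spanned most of its range.

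Members differed widely in level. Per kb of annotated exon, a scale that allows only a rough comparison between genes, Ftl1 led in control libraries with 1870 ± 306 CPM per kb (SD, n = 3), above Txn1 at 291 ± 38.1, Gpx1 at 218 ± 35.3, Prdx1 at 149 ± 14.7, Gpx4 at 127 ± 4.18 and Fth1 at 111 ± 14.2. Ftl1 and Txn1 lay apart by far more than their spread, Txn1 also lay above Gpx1 in each of the 3 control libraries, and Gpx4 overlapped Fth1. Hmox1 read 55.5 ± 10.6 CPM per kb in control, 147 ± 31.7 in p21 and 79.1 ± 12.1 in p16. Nfe2l2 read 27.7 ± 1.35 and Keap1 11.9 ± 0.706 CPM per kb in control. Sod2, Mgst1, Gsta4 and Gstt1 were at the bottom with 3.72 ± 0.553, 2.08 ± 0.389, 1.81 ± 0.361 and 1.08 ± 0.669 CPM per kb. These levels rest on the exon lengths of the GENCODE M21 annotation. A length joins the exons of all annotated transcripts of a gene, such as 1.34 kb for Ftl1, 3.47 kb for Fth1 and 10.0 kb for Sod2. It need not be the length of the transcript in these cells, so the order between genes is uncertain.

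**Figure D4:**
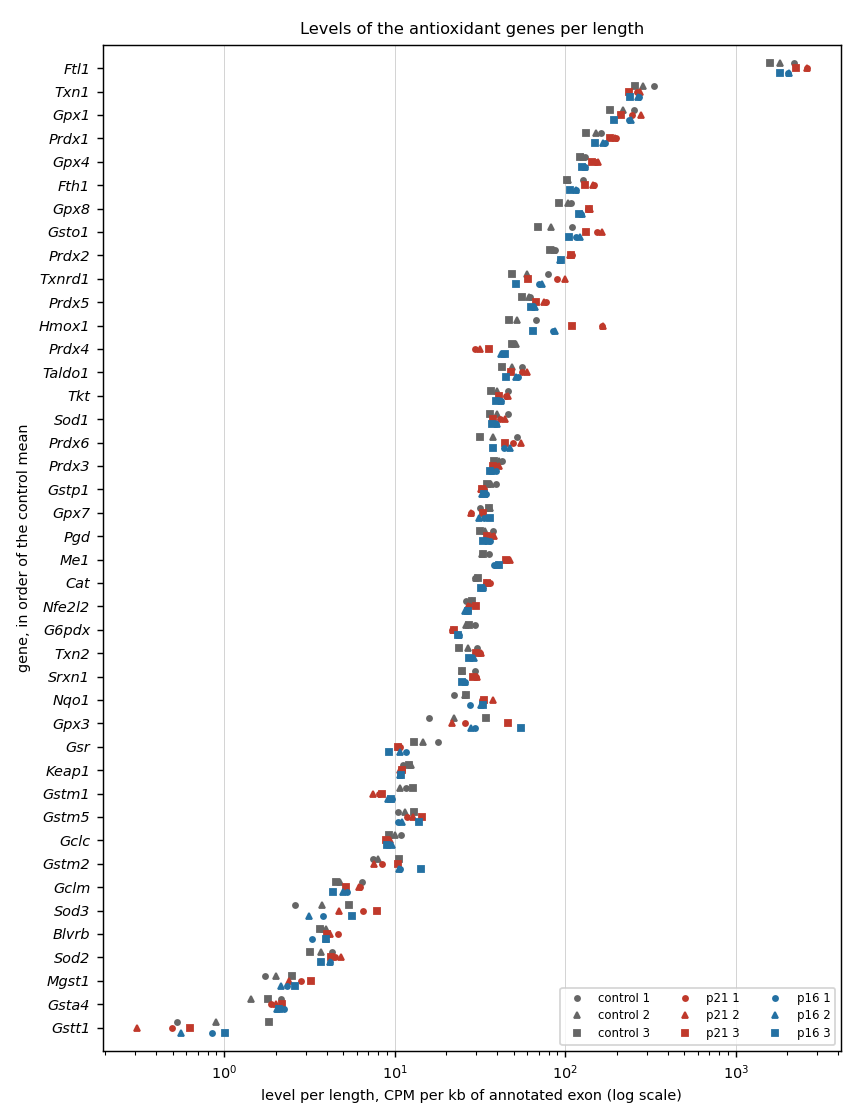
Level per length of each member in each library, as CPM per kb of annotated exon on a log scale, in order of the control mean. Ftl1 lies near 1870 and Gstt1 near 1.08 CPM per kb in control libraries, and for most members the groups differ by much less than the members do.

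The members also varied between replicates of a group. Control replicate 1 was the highest control library for 28 of the 42 members (66.7%, against 42.9% of all genes tested), and control replicate 3 the lowest for 26 (61.9%, against 40.4%). In p21 cells replicate 3 was the lowest for 22 members (52.4%, against 36.7%) and in p16 cells for 25 (59.5%, against 38.6%). Together the 42 members took 0.868%, 0.750% and 0.690% of counts in control replicates 1 to 3, 0.964%, 0.966% and 0.870% in p21 and 0.816%, 0.815% and 0.745% in p16. Every p21 library was thus above every control library in summed share, by a narrow margin, and p16 overlapped control. Ftl1, whose counts are uncertain, made up much of the sum. Without it the groups overlapped: control replicate 1 stood at 0.571% and p21 replicate 3 at 0.565%. Without control replicate 1, 19 members rose and 7 fell in p21 cells (45.2% and 16.7%), as did 19.6% and 19.5% of all genes tested in that refit. Of the 18 calls in p21 minus control, 16 held under each of the 16 alternative settings, the exceptions being Sod2 and Gstp1.

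Beyond the members, a list of 78 further redox and NRF2 network genes was examined, of which 72 were tested. In p21 cells 26 rose and 10 fell (36.1% and 13.9%, against 19.3% and 20.7% of all genes tested), with a median log2 of 0.16. In p16 cells 2 rose and 1 fell (2.78% and 1.39%, against 3.57% and 3.65%), and 9 and 4 did with the replicate block (12.5% and 5.56%, against 8.59% and 8.38%). In p21 minus p16 12 were higher and 4 lower (16.7% and 5.56%, against 6.19% and 6.64%), and 18 and 7 with the block (25% and 9.72%, against 11.8% and 12.2%). The lowest adjusted p belonged to Idh2, a mitochondrial supplier of NADPH, with 121, 123 and 125 CPM in control, 56.1, 59.6 and 67.0 in p21 and 87.0, 90.2 and 98.2 in p16 replicates 1 to 3. Its 3 groups did not overlap. Idh2 fell in p21 cells (log2 -1.01, adjusted p = 1.49e-05) and in p16 cells (-0.42, 0.0107), and was lower in p21 than in p16 (log2 -0.59, 0.00137). The p16 call was lost without p16 replicate 1 or 2 (adjusted p = 0.0531 and 0.062).

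For the next genes values are log2 differences with edgeR adjusted p-values in brackets. Sqstm1, which encodes an autophagy receptor that binds KEAP1, read 316, 336 and 313 CPM in control, 526, 492 and 458 in p21 and 377, 374 and 357 in p16. It rose by 0.61 in p21 cells (5.26e-05), stood at 0.20 in p16 cells (0.0657, 0.0415 without p21 replicate 3 and 0.0158 with the replicate block) and was higher in p21 than p16 by 0.42 (0.00248). Nfe2l1, a transcription factor related to NRF2, rose by 0.41 in p21 cells (0.00013), from 334 ± 14.0 to 444 ± 11.1 CPM. Cbr1, a carbonyl reductase, rose by 0.39 in p21 cells (0.000223) and was higher in p21 than p16 by 0.34 (0.00268). Selenow (listed as Sepw1), a small selenoprotein, rose by 0.38 in p21 cells (0.000112) and was higher in p21 than p16 by 0.23 (0.00715). Ephx1, an epoxide hydrolase, rose by 0.44 in p21 and 0.21 in p16 cells (0.000223 and 0.0443), and the p16 call was lost without any 1 library other than p21 replicate 2 (0.0502 to 0.128). The oxidase gene Nox4, whose product makes hydrogen peroxide, rose by 0.58 and 0.38 (0.000336 and 0.02), and the p16 call was lost without control replicate 2 or any 1 p16 library (0.0571 to 0.0672). Tfrc, the transferrin receptor that imports iron, fell in p21 cells (log2 -0.77, 0.000351), in the same libraries where the ferritin chains rose.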

How the data were processed

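RNA of 9 libraries was measured by RNA-seq. The deposited table holds raw counts of reads per gene symbol. The authors' tools included featureCounts (1.4.6) of Subread, TopHat2 (2.0.14) and Bowtie2 (2.2.6), with build mm10, per the submitters' processing notes. The counting annotation, its strand setting and its treatment of multiply mapped reads are unknown here, so overlapping genes and near-identical copies are uncertain. Every column of the table mapped to a sample by its title.

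Genes were kept by edgeR's filterByExpr (14572 of 24062) and compared with edgeR 4.0.16 in R 4.3.3: TMM, 1 fit of 3 group means to 9 libraries, quasi-likelihood F test, Benjamini-Hochberg adjustment over all genes tested, threshold 0.05. The script was tested on simulated data. CPM used TMM-scaled totals, and SE is the log2 fold change divided by the square root of F. Shared 50-base words and exon lengths came from GENCODE M21 (GRCm38), and promoters from RefSeq. The members and lists were chosen with earlier results of these data known. Every member is named. A value in every library is given for Nfe2l2, Keap1, 6 NRF2 targets and the 16 members with the lowest adjusted p, and for some others chosen after their values were seen. Of the further list, the 8 genes with the lowest adjusted p in p21 minus control and up to 4 in each other comparison are named. Both comparisons against control share the control libraries.

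Totals of 56.9 M to 76.1 M counts make counting error small beside the spread between libraries. Libraries of a group differed beyond sampling noise (chi-square per degree of freedom 10.37 to 101.2). Deviations of same-numbered libraries correlated at 0.251, 0.109 and 0.545 between p16 and control and at 0.159, 0.287 and 0.478 between p21 and p16, all over the limit of 0.1, so adjusted p-values with the replicate block stand beside results of those comparisons whose call the block changed. Some pairs with different numbers also passed that limit: p16 replicate 2 with control replicate 1 (0.299), p21 replicate 1 with p16 replicate 2 (0.102) and p21 replicate 2 with p16 replicate 1 (0.144). Pairing by number is therefore uncertain for replicates 1 and 2. It comes from the data, not from the labels.

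The 16 alternatives were relative log expression or library-size scaling, DESeq2 1.42.0, no low-count filter, the 2 compared groups alone, the replicate block, leaving out each of 9 libraries, and replicates 1 and 2 only.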

Additional observations from a re-analysis of the deposited data

How the results depend on the processing

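No member reversed its direction in a call under any of the 16 alternatives. With the replicate block, 22 members rose and 9 fell in p21 minus control (7241 of all genes called, 49.7%, against 5820, 39.9%), 8 rose in p16 minus control, and 14 were higher and 4 lower in p21 minus p16, while calls over all genes came to 2473 in p16 minus control (1052 without the block) and 3496 in p21 minus p16 (1870). For p21 minus control the numbers do not pair the libraries by the rule used, since same-numbered deviations correlated at 0.183, 0.0253 and 0.489. The block added no reversal. DESeq2 gave 6 members higher in p16 minus control, 12 higher in p21 minus p16 and 1808 genes called in p16 minus control. Fitting only the groups compared gave 1 higher, 0 lower (6 with an unadjusted p under 0.05) and 555 genes in p16 minus control, and 10 higher in p21 minus p16. Replicates 1 and 2 alone gave 1 lower and 593 genes in p16 minus control, and 9 higher and 2 lower in p21 minus p16. Scaling by library size alone gave 8 lower in p21 minus control.

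Leaving out each library in turn gave 12 to 19 members higher and 4 to 7 lower in p21 minus control, 0 to 3 higher and 0 to 3 lower in p16 minus control, and 0 to 10 higher and 1 to 1 lower in p21 minus p16. Calls over all genes ranged from 4224 to 5788, from 222 to 949 and from 600 to 2464 in the same order. The counts of 0 higher in p16 minus control came without control replicate 2, p16 replicate 1 or p16 replicate 2 (4, 5 and 5 with an unadjusted p under 0.05), those of 0 lower without p16 replicate 1, 2 or 3 (6, 3 and 5), and that of 0 in p21 minus p16 without p21 replicate 1 (9). The causes were not tested.

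With 3 libraries a group, changes of the size seen for Txnrd1 or Sod3 did not pass beside their spread. The depth was not limiting for most members, Gstt1 being the lowest at under 3 CPM. The largest shift of the median of all genes under another scaling was -0.0346 on the log2 scale, in p21 minus control by library size alone.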

Other observations

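The genes in this paragraph come from the list of further redox genes and were chosen after their values were seen. Gss encodes glutathione synthetase, the enzyme after glutamate-cysteine ligase, and Slc7a11 the cystine importer that feeds it. Gss averaged 53.3 ± 4.69 CPM (SD, n = 3) in control, 76.4 ± 6.35 in p21 and 58.8 ± 4.05 in p16 libraries, and was higher in p21 cells (log2 0.52, edgeR adjusted p = 0.00118). Slc7a11 averaged 9.46 ± 3.82 CPM in control, 4.63 ± 0.768 in p21 and 7.61 ± 1.25 in p16 libraries, and was lower in p21 cells (log2 -1.03, adjusted p = 0.0139). Bach1, a repressor that competes with NRF2 for antioxidant response elements and controls Hmox1, averaged 51.9 ± 5.39 CPM in control, 40.9 ± 3.09 in p21 and 47.3 ± 3.35 in p16 libraries. It was lower in p21 cells (log2 -0.34, adjusted p = 0.0113). Mafk, a small MAF partner of both NRF2 and BACH1, averaged 45.3 ± 5.14, 68.4 ± 10.5 and 54.8 ± 3.49 CPM in the same order, and was higher in p21 cells (log2 0.59, adjusted p = 0.00294). In p16 cells none of these 4 genes passed with edgeR and no block (adjusted p = 0.343, 0.526, 0.39 and 0.178), and with the replicate block Gss and Mafk did (0.0394 and 0.0285). Of the other small MAF genes in the list, Maff was higher in p21 cells (38.95 CPM in control and 48.61 in p21 libraries). Mafg did not pass there (29.44 and 27.85 CPM). Bach2 was also lower in p21 cells (9.04 and 4.24 CPM). Whether any of these genes has a part in the rise of Hmox1 was not tested.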
